A study of Mus musculus with 5 samples.

Results

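The TRIM and PARP genes described here are the rows of a mouse peritoneal cell RNA table whose symbol starts with Trim or Parp and a digit and that reached at least 1 FPKM in at least 1 of 5 libraries. FPKM is a fragment count scaled by transcript length and library size, so levels of different genes can be compared on it. Of 22815 rows, 78 carried such a symbol and 46 met the level, 34 TRIM genes and 12 PARP genes. Of the 32 left out, 16 were listed at 0 in every library and 16 lay above 0 but under 1 FPKM. Just inside the threshold were Trim29, with a highest value of 1.08 FPKM, and Trim36, with 1.13 FPKM, and just outside it were Trim62 with 0.861 FPKM and Trim40 with 0.837 FPKM. Parp16, Trim7 and Trim24 reached the level only in the PBS library and Trim29 only in a WT pristane library, and 6 others, Trim21, Trim23, Trim33, Trim36, Trim56 and Trim59, reached it in both WT groups but not in libraries labelled Irf8KO. For these 10 genes the level was met through the groups where they are high, so a lower value elsewhere is partly fixed by the rule, and counts over the 46 genes below include them.

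TRIM proteins share a tripartite motif of a RING finger, B-boxes and a coiled coil. Most are ubiquitin ligases, and many tune the signalling that starts from RNA or DNA sensors, while the group of Trim24, Trim28 and Trim33 works in the nucleus as cofactors of transcription. PARP proteins transfer ADP-ribose from NAD to proteins. Parp1, Parp2 and Parp3 respond to DNA breaks, and several others, such as Parp9, Parp10, Parp12 and Parp14, add single ADP-ribose units or bind them and are induced by interferons in many cell types, as are a good number of TRIM genes.

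The libraries came from lavaged peritoneal cells of mice aged 8 weeks. A pair of libraries labelled Irf8KO came from pristane-treated Irf8-deficient mice, a pair came from wild-type (WT) mice given pristane, a hydrocarbon oil that inflames the peritoneum, and 1 came from a WT mouse or mice given PBS. The WT background was C57BL/6. The sources used here do not give the allele, the pristane dose, the time of lavage or any pooling of animals, and nothing states that the libraries of a group came from separate animals, so p-values measure the spread between these libraries only. Total RNA of a fixed number of lysed cells entered a low-input Smart-seq2 protocol, so each library holds a mixture of cells. A lower value can stand for fewer cells of a type or for less RNA per cell, and these cannot be told apart.

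Irf8 RNA itself was not lower in the libraries labelled Irf8KO, which had 120.5 and 59.4 FPKM, against 63.3 and 48.7 FPKM in WT pristane libraries and 32.4 FPKM in the PBS library. Whether the allele leaves a transcript was not tested, and every direction below is drawn with these labels. The male transcript Eif2s3y had 23.2 and 25.6 FPKM in libraries labelled Irf8KO, 12.9 and 0 FPKM in WT pristane replicates 1 and 2 and 0 FPKM in the PBS library, while Xist had 8.81 FPKM in WT pristane replicate 2 and 43.5 FPKM in the PBS library. Xist had 0.0148 and 0.0145 FPKM in libraries labelled Irf8KO and 0 FPKM in WT pristane replicate 1. The WT libraries thus differed in sex transcripts from each other. Sex transcripts also differed between the libraries labelled Irf8KO and the PBS library, so group and sex cannot be told apart in that comparison. Estimated depth ran from 2310000 assigned fragments in the PBS library to 5122000 in the first library labelled Irf8KO. Summed neutrophil markers were 48908 and 25190 FPKM in libraries labelled Irf8KO, 17609 and 15946 FPKM after pristane in WT and 172 FPKM after PBS, with 11 of 11 markers reaching 1 FPKM. Summed inflammatory monocyte markers, 9 of 9 of them measured, were 421 and 243 FPKM in libraries labelled Irf8KO, 1180 and 6102 FPKM after pristane in WT and 842 FPKM after PBS. Large peritoneal macrophage markers, 11 of 11, summed to 1492 and 2297 FPKM, 234 and 308 FPKM, and 2063 FPKM in the same order of groups, and B cell markers, 11 of 11, to 239 and 121 FPKM, 55.5 and 15.8 FPKM, and 3274 FPKM.

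The summed level of the 46 genes was 154 and 155 FPKM in libraries labelled Irf8KO, 303 and 304 FPKM in WT pristane libraries and 281 FPKM in the PBS library. The libraries labelled Irf8KO therefore had the lowest sums, and each pair lay within 2 FPKM. The number of these genes at 1 FPKM or more was 34 in both libraries labelled Irf8KO, 37 and 36 in WT pristane libraries and 43 in the PBS library. By mean level over the 5 libraries, the highest were Trim30a, Trim25, Trim35, Parp10, Parp1, Parp9, Trim26, Trim47, Trim30d, Trim13, Trim14 and Parp2.

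**Figure D1:**
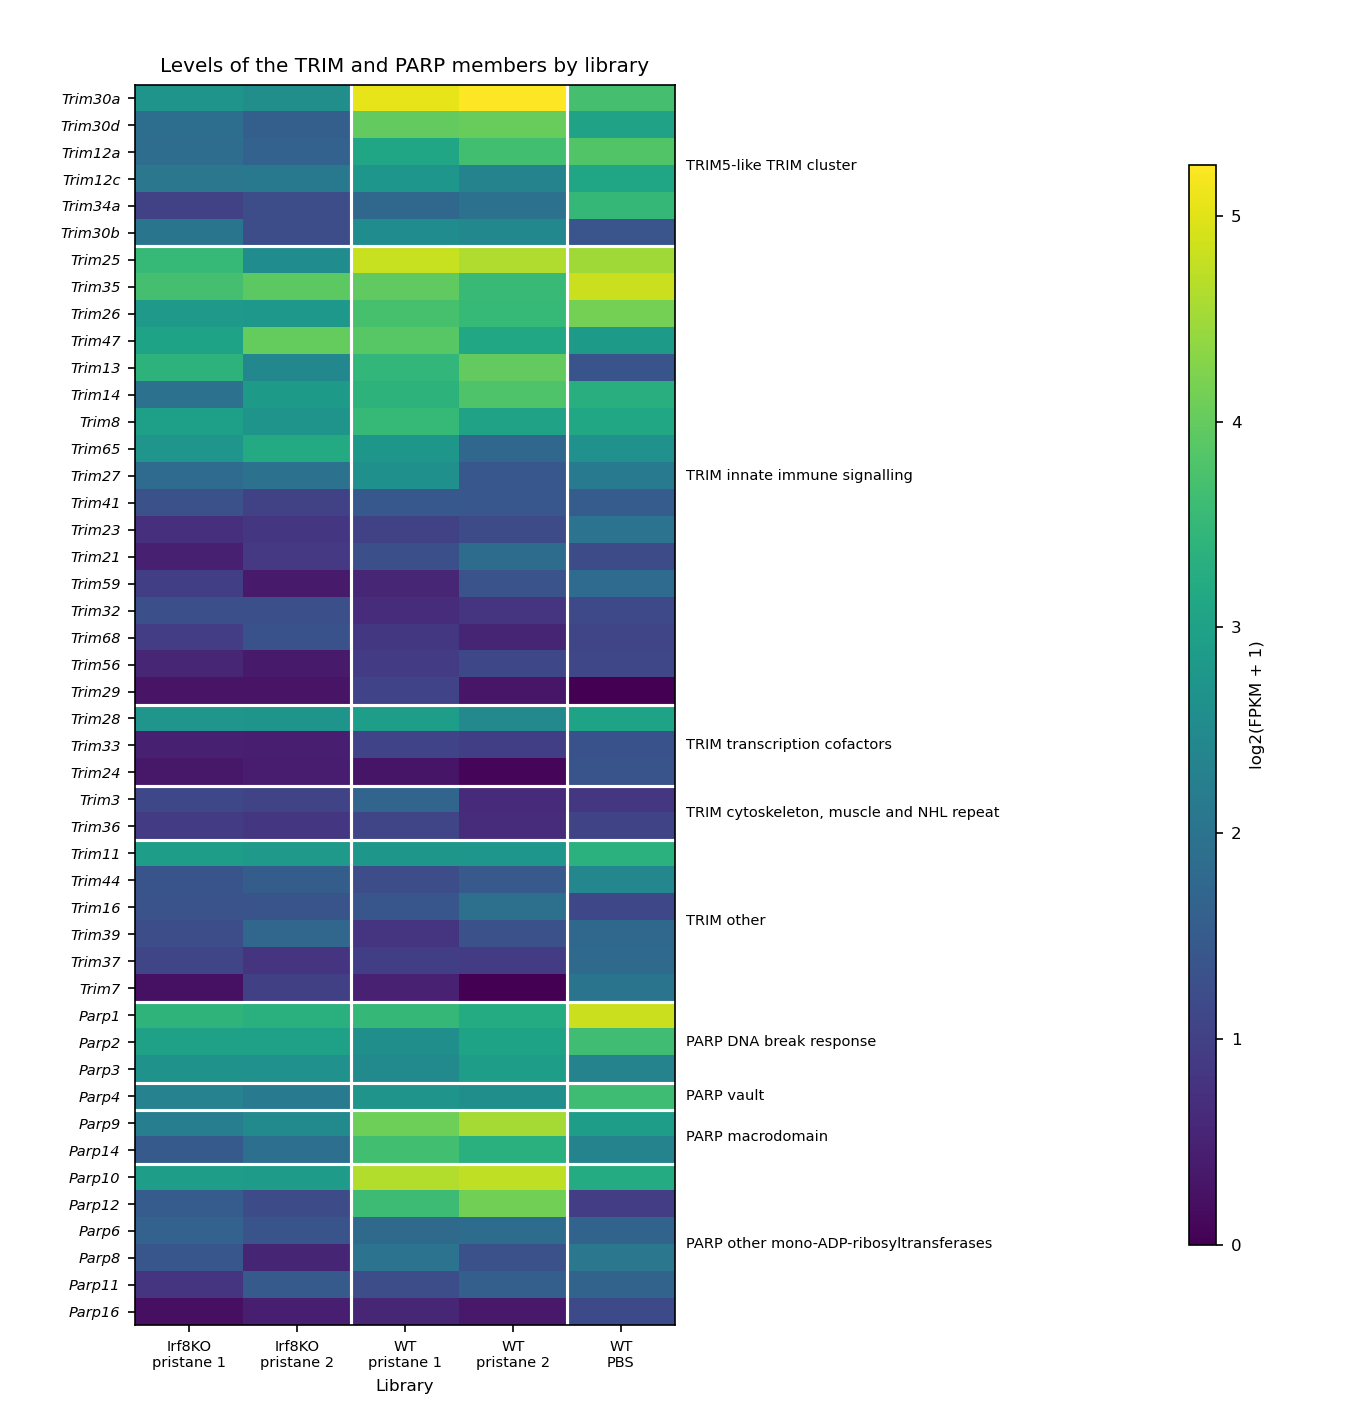
Level of each of the 46 TRIM and PARP genes (rows, ordered by role and mean level) in each library (columns) as log2(FPKM + 1), from dark (0) to yellow. Trim30a, Trim30d, Parp9, Parp10, Parp12 and Parp14 are brightest in both WT pristane libraries, while Parp1, Trim34a and Trim35 are brightest in the PBS library.

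The mouse relatives of human TRIM5, a restriction factor against retroviruses, lie close together on chromosome 7, and 6 genes of this cluster reached the level. Trim30a, which in mouse macrophages dampens Toll-like receptor signalling to NF-kB, had 5.58 and 5.04 FPKM in libraries labelled Irf8KO, against 32.4 and 36.9 FPKM in WT pristane libraries, with 11.9 FPKM in the PBS library. The groups did not overlap, and the WT pristane mean was 6.53 times the mean of the libraries labelled Irf8KO. Its log2 difference, the libraries labelled Irf8KO minus WT pristane on the log2(FPKM + 1) scale, was -2.50 ± 0.18 (SE, n = 2 each, adjusted p = 0.0541 by limma with Benjamini-Hochberg adjustment). Trim30d, its close neighbour, had 2.72 and 1.99 FPKM in libraries labelled Irf8KO, against 14.8 and 15.3 FPKM in WT pristane and 7.12 FPKM in the PBS library. This difference was -2.26 ± 0.21 (adjusted p = 0.0562 by limma). Neither gene passed the threshold of 0.05. Trim12a had 2.67 and 2.13 FPKM in libraries labelled Irf8KO, against 7.5 and 11.7 FPKM in WT pristane and 13.1 FPKM in the PBS library, with a difference of -1.62 ± 0.29 between the pristane groups (adjusted p = 0.117 by limma). Trim34a had 1.02 and 1.36 FPKM in libraries labelled Irf8KO, 2.40 and 2.88 FPKM in WT pristane libraries and 10.2 FPKM in the PBS library. Trim12a and Trim34a were highest in the PBS library, Trim34a by the wider margin. Trim12c had 3.21 and 3.37 FPKM in libraries labelled Irf8KO, against 5.79 and 4.08 FPKM in WT pristane and 7.48 FPKM in the PBS library, and Trim30b had 3.11 and 1.36 FPKM, against 4.85 and 4.43 FPKM in WT pristane and 1.60 FPKM in the PBS library. All 6 had log2 differences below 0 between the pristane groups, with a median of -1.24.

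Promoter letters are shown for the 5 genes of this cluster that carry the same short motif, among them Trim30a, which rose, and Trim34a, which fell, in WT pristane against PBS. Each line gives bases -70 to 30 from the RefSeq transcription start on the gene's own strand (GRCm38.p6), in lower case, with capitals for a pair of GAAA half-sites spaced by 2 bases on either strand, the core of the element that interferon regulatory factors and the ISGF3 complex are known to bind. Trim30a is at chr7:104465164-104465263 (minus strand), Trim30d at chr7:104507820-104507919 (minus strand), Trim12a at chr7:104315466-104315565 (minus strand), Trim12c at chr7:104353320-104353419 (minus strand) and Trim34a at chr7:104244387-104244486 (plus strand).
Trim30a: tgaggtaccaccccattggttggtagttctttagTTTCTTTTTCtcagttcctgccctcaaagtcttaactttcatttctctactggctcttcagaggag
Trim30d: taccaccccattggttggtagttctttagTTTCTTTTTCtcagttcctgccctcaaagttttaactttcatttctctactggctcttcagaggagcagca
Trim12a: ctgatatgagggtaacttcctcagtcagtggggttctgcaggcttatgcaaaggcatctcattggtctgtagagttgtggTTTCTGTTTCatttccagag
Trim12c: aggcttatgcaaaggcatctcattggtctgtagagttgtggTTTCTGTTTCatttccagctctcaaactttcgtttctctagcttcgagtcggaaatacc
Trim34a: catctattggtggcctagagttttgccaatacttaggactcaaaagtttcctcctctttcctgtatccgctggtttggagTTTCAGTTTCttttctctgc

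Trim30a and Trim30d were identical at 277 of the 300 promoter bases compared (92.3%) after alignment and at the same motif letters, and Trim12a and Trim12c at 248 bases (82.7%). In GENCODE M21 transcripts, 39.8% of the 50-base stretches of Trim34a also occurred in Trim34b, a gene listed at 0 in all libraries. Of the stretches of Trim12c, 33.0% occurred in another gene, as did 20.8% of those of Trim12a, 7.49% of those of Trim30d and 6.53% of those of Trim30a. The values of Trim34a, Trim12a and Trim12c are therefore uncertain as to which copy the fragments came from.

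Among the TRIM ligases of innate immune signalling outside the cluster, Trim25, which ubiquitinates the RNA sensor RIG-I, had 10.5 and 4.87 FPKM in libraries labelled Irf8KO, against 27.0 and 23.5 FPKM in WT pristane and 21.8 FPKM in the PBS library. The difference between the pristane groups was -1.67 ± 0.38 (SE, n = 2 each, adjusted p = 0.151 by limma). Trim26, a ligase described in interferon production, had 6.11 and 5.98 FPKM in libraries labelled Irf8KO, 12.1 and 10.5 FPKM in WT pristane libraries and 16.8 FPKM in the PBS library. In both genes the libraries labelled Irf8KO were below all other libraries. Trim14, an adaptor at the mitochondrial sensor platform, had 2.94 and 6.30 FPKM, against 9.46 and 12.99 FPKM in WT pristane and 8.82 FPKM in the PBS library. Trim21, a cytosolic antibody receptor and ligase, had 0.369 and 0.829 FPKM, against 1.44 and 2.64 FPKM in WT pristane and 1.31 FPKM in the PBS library. Trim56, a ligase linked to DNA sensing, had 0.480 and 0.308 FPKM, against 0.879 and 1.21 FPKM in WT pristane and 1.18 FPKM in the PBS library. These 3 also lay lower in both libraries labelled Irf8KO than in every other library, at differences of -1.17, -0.91 and -0.55, none of which passed adjustment. For Trim21 and Trim56 this is partly fixed by the rule, since neither reached 1 FPKM in libraries labelled Irf8KO. The first library labelled Irf8KO held about 5 fragments of Trim21, so its value is imprecise. Exons of Trim14 overlap those of Nans on the opposite strand, and the sources used here do not say whether the counting used strand.

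Promoter stretches of Trim21, Trim26 and Trim25 are given as examples with overlapping matches and with none. Trim21 is at chr7:102565453-102565552 (minus strand) and Trim25 at chr11:88999333-88999432 (plus strand), both from -70 to 30 bases from the start, and Trim26 is at chr17:36836956-36837055 (plus strand), from -190 to -91 bases.
Trim21: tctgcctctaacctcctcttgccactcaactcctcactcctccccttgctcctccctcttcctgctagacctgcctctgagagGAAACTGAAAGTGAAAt
Trim26: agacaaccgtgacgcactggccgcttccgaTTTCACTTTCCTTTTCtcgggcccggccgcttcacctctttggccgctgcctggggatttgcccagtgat
Trim25: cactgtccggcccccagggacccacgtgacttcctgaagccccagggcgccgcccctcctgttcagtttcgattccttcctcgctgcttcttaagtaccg

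The PARP genes of the interferon-inducible list differed in the same direction. Parp12, a mono-ADP-ribosyltransferase with antiviral activity, had 1.89 and 1.32 FPKM in libraries labelled Irf8KO, against 11.03 and 16.6 FPKM in WT pristane and 0.942 FPKM in the PBS library. The WT pristane mean was 8.63 times that of the libraries labelled Irf8KO, and the log2 difference was -2.49 ± 0.29 (SE, n = 2 each, adjusted p = 0.0716 by limma). Parp9, which forms a complex with the ubiquitin ligase Dtx3l, had 3.71 and 4.65 FPKM, against 15.9 and 22.2 FPKM in WT pristane and 6.63 FPKM in the PBS library, a difference of -1.94 ± 0.25 between the pristane groups (adjusted p = 0.0843 by limma). Parp14, a macrodomain PARP known as a partner of STAT6, had 1.81 and 2.76 FPKM, against 11.7 and 9.04 FPKM in WT pristane and 4.11 FPKM in the PBS library, a difference of -1.80 ± 0.27 (adjusted p = 0.10 by limma). In all 3 the WT pristane pair was above every other library. Parp10, a mono-ADP-ribosyltransferase, had 6.52 and 6.37 FPKM, against 23.8 and 25.8 FPKM in WT pristane and 8.30 FPKM in the PBS library, and its difference was -1.79 ± 0.17 (adjusted p = 0.0562 by limma). Parp11 had 0.727 and 1.80 FPKM, against 1.35 and 2.00 FPKM in WT pristane and 2.18 FPKM in the PBS library. It was the interferon-inducible gene whose pristane groups overlapped, and its difference of -0.27 took the opposite sign, 0.08, without replicate 1 labelled Irf8KO. Parp14, Dtx3l and Parp9 are consecutive genes on chromosome 16. Exons of Parp9 overlap those of Dtx3l on the opposite strand and exons of Parp10 overlap those of Plec on the same strand, so fragments of these pairs may be mixed.

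The Parp12 promoter is shown as the gene with the widest gap among the PARP genes and no match to the motif. It is at chr6:39118320-39118419 (minus strand), -70 to 30 bases from the start.
Parp12: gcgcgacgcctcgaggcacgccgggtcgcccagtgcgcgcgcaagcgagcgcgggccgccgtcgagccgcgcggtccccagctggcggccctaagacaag

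**Figure D2:**
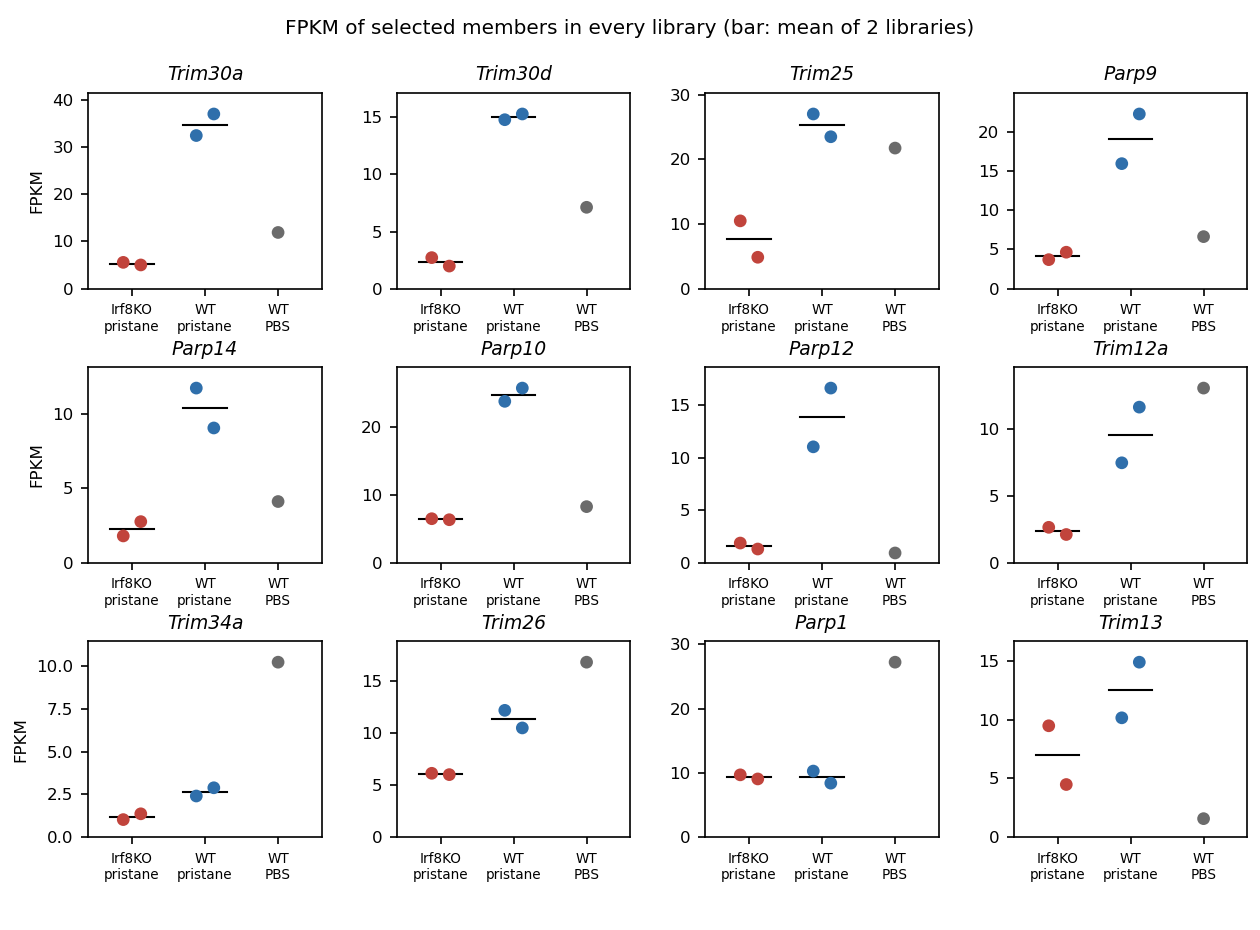
FPKM of 12 TRIM and PARP genes in every library, each on its own axis from 0, for libraries labelled Irf8KO pristane (left), WT pristane (middle) and WT PBS (right), with a bar at the mean of each pair. Trim30a, Trim30d, Parp9, Parp10, Parp12 and Parp14 peak in WT pristane, whereas Trim34a and Parp1 peak in WT PBS, at 10.2 and 27.2 FPKM.

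Over all 46 genes, 0 passed an adjusted p of 0.05 in the libraries labelled Irf8KO against WT pristane (limma), where 0.027% of the 11117 genes tested passed as lower and 0% as higher. At an unadjusted p under 0.05, 14 of the 46 were lower and 1 was higher, against 10.1% and 10.5% of all genes. The 14 were Parp9, Parp10, Parp12, Parp14, Trim12a, Trim14, Trim21, Trim25, Trim26, Trim30a, Trim30d, Trim33, Trim34a and Trim56. Of these, Trim21, Trim33 and Trim56 did not reach 1 FPKM in libraries labelled Irf8KO, so their lower values are partly fixed by the rule. Both libraries labelled Irf8KO lay below both WT pristane libraries for 24 of the 46 and above them for 4, namely Trim11, Trim24, Trim32 and Trim68, and over all genes these shares were 27.1% and 26.1%. The same limit holds for Trim21, Trim23, Trim29, Trim33 and Trim56 among the 24. The median log2 difference was -0.32 over the 46 genes and -0.0018 over all genes tested. The genes listed as interferon-inducible, 16 of the 46, were below 0 in 16 of 16 cases with a median of -1.39, Trim21 and Trim56 among them. The other 30 had a median of -0.04 with 17 below 0. This list was chosen with earlier results of these data known, so the split describes the data and is no test.

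Whether a gene was called depended on the level asked of the genes tested. Among genes with a mean of at least 5 FPKM, 6 of 21 were called lower and 0 higher, namely Parp9, Parp10, Parp12, Parp14, Trim30a and Trim30d, against 2.32% lower and 1.78% higher over all 5894 genes of that level. Parp12 and Parp14 reached a group mean of 5 FPKM only in WT pristane, and Parp9 and Trim30d only in the WT groups. These genes passed this filter through the groups where they are high, so their being called here is partly fixed by it. In a fit on the 4 pristane libraries alone, with the level asked of these 4, the same 6 and Trim12a were called lower, 7 of 43, against 2.15% lower and 1.98% higher over 10431 genes. That last setting was chosen after seeing the data. With any 1 pristane library left out, WT pristane replicate 2 among them, 0 of the 46 were called and 0 of all genes tested, and the Trim30a difference ran from -2.59 to -2.40. The marker sums given above differed between the same groups: neutrophil and macrophage markers were higher and monocyte markers lower in both libraries labelled Irf8KO than in both WT pristane libraries. By gene, log2 differences were below 0 for 2 of 11 neutrophil, 1 of 11 macrophage and 9 of 9 monocyte markers. Markers of dividing cells, 10 of 10 measured, summed to 84.6 and 69.2 FPKM in libraries labelled Irf8KO, against 11.4 and 12.97 FPKM in WT pristane, and those of dendritic cells, 7 of 7, to 1.79 and 3.55 FPKM, against 26.7 and 10.01 FPKM. Natural killer cell markers were below 0 in log2 difference for 8 of 8 genes and T cell markers for 9 of 9. The part of these markers in the differences between the pristane groups was not tested.

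**Figure D3:**
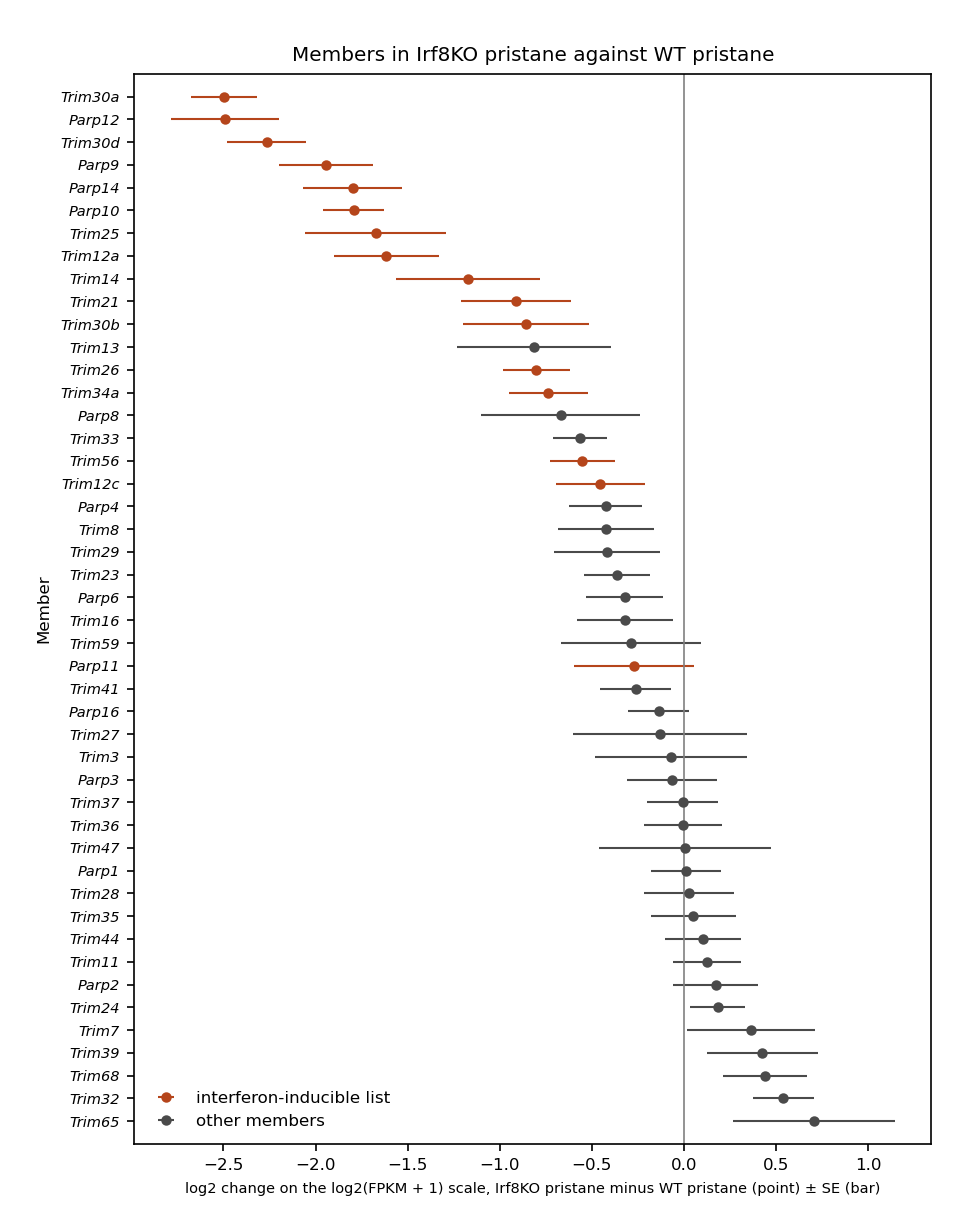
Log2 difference on the log2(FPKM + 1) scale, Irf8KO pristane minus WT pristane (point), with its SE (bar), for the 46 genes, coloured by membership of the interferon-inducible list. All 16 listed genes lie left of 0, down to -2.50 for Trim30a, and the other 30 lie around 0 with a median of -0.04. The list was chosen with earlier results of these data known.

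Genes outside the interferon-inducible list had differences of both signs between the pristane groups. Parp1, the main responder to DNA breaks, had 9.68 and 9.04 FPKM in libraries labelled Irf8KO, against 10.3 and 8.38 FPKM in WT pristane, a difference of 0.01 ± 0.19 (SE, n = 2 each). Trim28, a corepressor of zinc finger proteins, had 5.69 and 5.60 FPKM in libraries labelled Irf8KO, against 6.63 and 4.56 FPKM in WT pristane. Trim47 spread within each pair, with 7.20 and 15.0 FPKM in libraries labelled Irf8KO, against 13.8 and 7.80 FPKM in WT pristane, so no difference was detectable. Its exons overlap those of its neighbour Trim65, which had 5.71 and 8.24 FPKM, against 5.88 and 2.38 FPKM in WT pristane. Trim32, a ligase with NHL repeats, was the gene higher at an unadjusted p, with 1.42 and 1.42 FPKM in libraries labelled Irf8KO, against 0.580 and 0.754 FPKM in WT pristane and 1.23 FPKM in the PBS library (difference 0.54 ± 0.16, adjusted p = 0.200 by limma). Trim33, a cofactor in SMAD signalling, had 0.373 and 0.361 FPKM, against 1.07 and 0.974 FPKM in WT pristane and 1.51 FPKM in the PBS library, the one gene of the 14 outside the list. Its lower value is partly fixed by the rule, since it reached 1 FPKM only in WT libraries.

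After pristane in WT mice, set against the PBS library, 3 of the 46 genes rose and 3 fell at an adjusted p under 0.05, against 5.18% higher and 5.46% lower over all genes tested. Parp12 rose by 2.91 ± 0.36 on the log2 scale (SE, adjusted p = 0.0319 by limma), its WT pristane mean being 14.7 times the PBS value. Parp10 rose by 1.47 ± 0.20 (adjusted p = 0.0350 by limma) and Trim30a by 1.46 ± 0.22 (adjusted p = 0.0384 by limma), to 2.99 and 2.91 times the PBS value. All 3 belong to the interferon-inducible list. The PBS library held about 7 fragments of Parp12, so the size of its rise is imprecise. Trim34a, of the same chromosome 7 cluster as Trim30a and also on that list, fell by 1.63 ± 0.26 (adjusted p = 0.0428 by limma). Parp1 fell to 10.3 and 8.38 FPKM in WT pristane libraries, against 27.2 FPKM in the PBS library (-1.46 ± 0.23, adjusted p = 0.0423 by limma). Trim24, a cofactor of nuclear receptors, fell to 0.229 and 0.0566 FPKM, against 1.58 FPKM in the PBS library (-1.18 ± 0.18, adjusted p = 0.0415 by limma). WT pristane libraries held about 4 and 1 fragments of Trim24, so the size of its fall is imprecise, and it met the level of 1 FPKM only through the PBS library. Without a filter on low values the call of Trim34a was lost. With a pseudocount of 0.1 the calls of Trim24 and Trim34a were lost (adjusted p = 0.0733 and 0.0667 by limma). The PBS group is 1 library, assumed in the fit to vary as the pristane libraries did, and when any 1 pristane library was left out 0 of the 46, and 0 of all genes tested, passed.

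Other genes had wide differences from the PBS library that did not pass. Trim13, a ligase of the endoplasmic reticulum membrane, had 10.2 and 14.9 FPKM in WT pristane libraries, against 1.57 FPKM in the PBS library (2.38 ± 0.51, adjusted p = 0.0644 by limma), and 9.51 and 4.49 FPKM in libraries labelled Irf8KO. It was above the PBS library in all 4 pristane libraries, and 14.2% of its 50-base stretches also occur in Gm9359. The PBS library held about 6 fragments of Trim13, so the size of its difference is imprecise. Parp9 differed by 1.38 ± 0.31 (adjusted p = 0.0691 by limma). Trim7, a ligase also known to bind glycogenin, had 0.403 and 0 FPKM in WT pristane libraries, against 3.02 FPKM in the PBS library. Trim44, which lacks a RING finger, had 1.37 and 1.75 FPKM, against 4.35 FPKM in the PBS library, and Trim23, which carries an ARF GTPase domain, had 1.06 and 1.33 FPKM, against 2.98 FPKM. Parp16, a PARP of the endoplasmic reticulum, had 0.483 and 0.287 FPKM, against 1.27 FPKM. These 4 were lower than the PBS library in both WT pristane libraries, which for Trim7 and Parp16 is partly fixed by the rule, since they met the level only there. Parp2 had 5.14 and 7.22 FPKM, against 11.5 FPKM, and Trim35 had 14.7 and 10.8 FPKM, against 27.6 FPKM in the PBS library. Among genes with a mean of at least 5 FPKM, Parp9, Parp10, Parp12, Trim13 and Trim30a were called higher and Parp1 lower, 5 and 1 of 21, against 13.7% and 6.24% of genes of that level. Parp12 reached a group mean of 5 FPKM only in WT pristane and Trim13 only in the pristane groups, so their calls are partly fixed by this filter. The median log2 difference was -0.29 over the 46 and -0.07 over all genes tested, and 28 of the 46 were below 0. Large peritoneal macrophage markers were called lower in WT pristane for 8 of 11 genes and higher for 1, mast cell markers lower for 7 of 9 and B cell markers lower for 11 of 11, while 10 of 11 neutrophil markers were called higher. The part of these markers in the differences from the PBS library was not tested.

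In the libraries labelled Irf8KO, set against the same PBS library, 4 of the 46 genes fell and 0 rose, against 4.72% lower and 3.81% higher over all genes tested. Trim34a fell by 2.36 ± 0.26 on the log2 scale (SE, adjusted p = 0.0336 by limma), the PBS value being 8.61 times the mean of the libraries labelled Irf8KO. Parp1 fell by 1.45 ± 0.23 (adjusted p = 0.0460 by limma), Trim26 by 1.33 ± 0.22 (adjusted p = 0.0483 by limma) and Trim12a by 2.06 ± 0.35 (adjusted p = 0.0495 by limma). Trim13, at an unadjusted p under 0.05, had 9.51 and 4.49 FPKM in libraries labelled Irf8KO, against 1.57 FPKM in the PBS library (1.56 ± 0.51, adjusted p = 0.128 by limma). Parp4, the PARP of vault particles, had 4.01 and 3.49 FPKM in libraries labelled Irf8KO, against 11.2 FPKM in the PBS library (-1.36 ± 0.24, adjusted p = 0.0531 by limma). Trim23 had 0.628 and 0.779 FPKM, against 2.98 FPKM (-1.23 ± 0.22, adjusted p = 0.0536 by limma), and Trim24 had 0.259 and 0.328 FPKM, against 1.58 FPKM in the PBS library. All 3 were lower than the PBS library in both libraries labelled Irf8KO. For Trim23 and Trim24, and for Parp16 and Trim33 below, this is partly fixed by the rule, since none reached 1 FPKM in libraries labelled Irf8KO. At a mean of at least 5 FPKM, 5 of 21 were called lower and 0 higher, against 4.99% and 10.8% of such genes. Those lower were Parp1, Parp4, Trim12a, Trim26 and Trim30d. Parp4, Trim12a and Trim30d reached a group mean of 5 FPKM only in the WT groups. Their calls are therefore partly fixed by this filter. With any 1 pristane library left out, 0 of the 46 and 0 of all genes tested passed. Without a filter on low values the call of Trim12a was lost and Trim33 was called lower. With a pseudocount of 0.1 the calls of Parp1, Trim26 and Trim12a were lost (adjusted p = 0.0545, 0.0552 and 0.0593 by limma). After quantile normalization the call of Trim12a was lost (adjusted p = 0.0524 by limma). Parp16 had 0.164 and 0.355 FPKM in libraries labelled Irf8KO, against 1.27 FPKM in the PBS library (-0.85 ± 0.21, adjusted p = 0.0803 by limma), and Trim44 had 1.57 and 1.93 FPKM, against 4.35 FPKM (-0.96 ± 0.25, adjusted p = 0.0905 by limma). The median was -0.61 over the 46 and -0.05 over all genes tested. Of the markers, 7 of 11 for B cells and 7 of 9 for mast cells were called lower in libraries labelled Irf8KO than in the PBS library, and 10 of 11 for neutrophils and 5 of 10 for dividing cells higher, and their part was not tested. This comparison shares its PBS library with the one before, and for the 4 genes the WT pristane minus PBS differences were -1.63, -1.46, -0.53 and -0.44. Parp12, which rose after pristane in WT mice, differed by 0.41 ± 0.36 here (adjusted p = 0.467 by limma), Parp10 by -0.32 ± 0.20 and Trim30a by -1.03 ± 0.22.

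**Figure D4:**
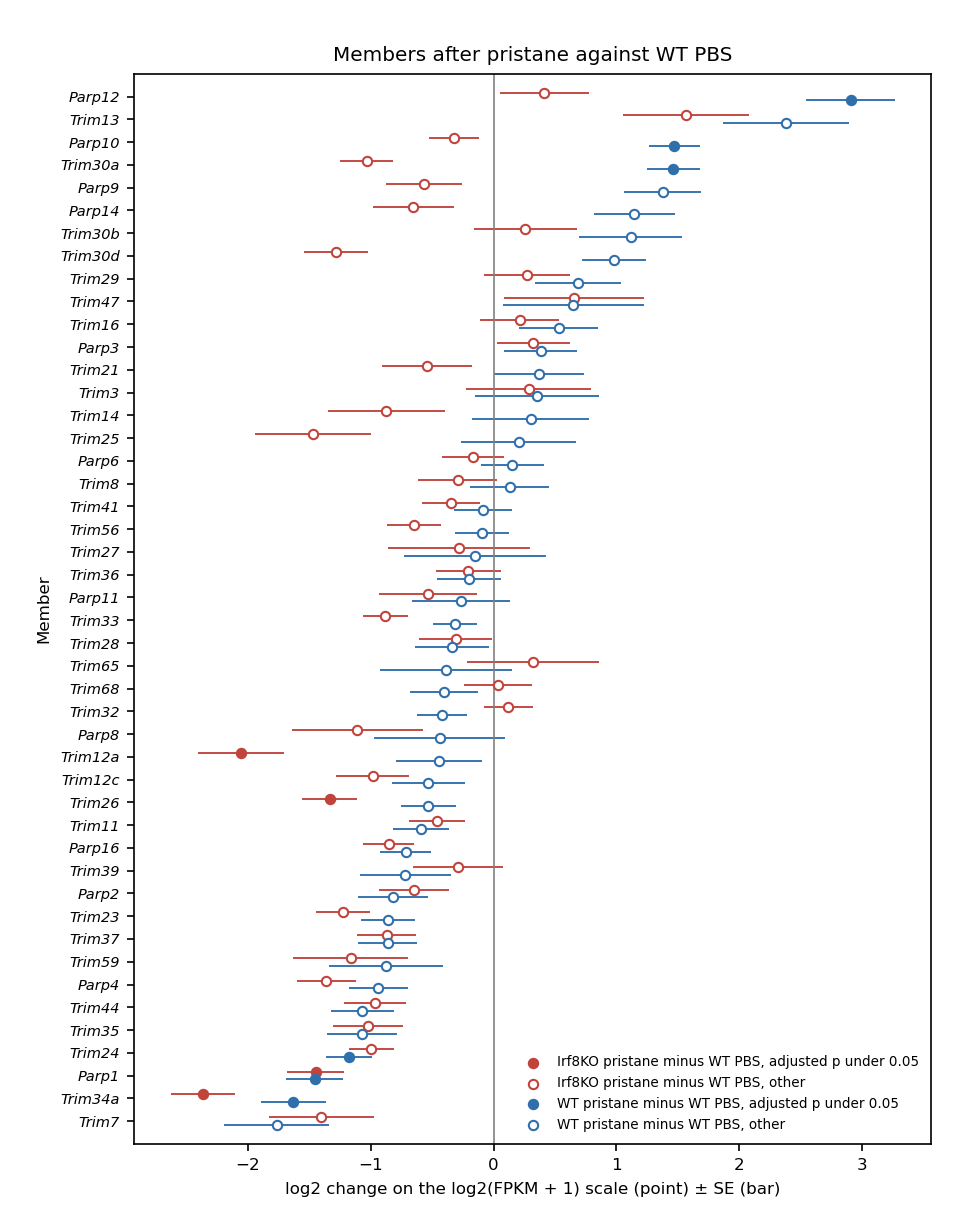
Log2 difference from the WT PBS library on the log2(FPKM + 1) scale (point) with its SE (bar) for each of the 46 genes, in Irf8KO pristane (red, upper of each pair) and WT pristane (blue, lower), filled where the adjusted p is under 0.05. Parp12, Parp10 and Trim30a lie right of 0 in WT pristane, at 2.91, 1.47 and 1.46, and at 0.41, -0.32 and -1.03 in Irf8KO pristane, while Parp1 and Trim34a lie left of 0 in both.

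The remaining genes had low to moderate levels. Parp3 had 5.36 and 5.31 FPKM in libraries labelled Irf8KO, 4.69 and 6.71 FPKM in WT pristane libraries and 4.07 FPKM in the PBS library, and Trim11 had 6.70 and 6.14 FPKM, 5.87 and 5.71 FPKM, and 9.22 FPKM in the same order. Trim8, a regulator of cytokine signalling, had 6.78 and 5.60 FPKM, 10.4 and 7.10 FPKM, and 7.77 FPKM. None of these was called in any of the 3 comparisons. Trim27, Trim37, Trim39, Trim59, Parp6 and Parp8 stayed between 0.295 and 5.19 FPKM, and Trim3, Trim16, Trim36, Trim41 and Trim68 between 0.45 and 2.85 FPKM. Trim29 was listed at 0 in the PBS library and had at most 1.08 FPKM, in WT pristane replicate 1. Exons of Trim41, Trim16 and Parp3 overlap those of Rack1, Fbxw10 and Rrp9, so part of their values may belong to those genes.

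Partners of these proteins were described from lists compiled by function, some of which share genes. Their counts stand against 0.027% of all genes called lower and 0% higher between the pristane groups, and 5.18% higher and 5.46% lower in WT pristane against PBS, and all calls in these lists were lost when any 1 pristane library was left out. Dtx3l had 3.74 and 3.42 FPKM in libraries labelled Irf8KO, against 17.1 and 18.2 FPKM in WT pristane and 6.91 FPKM in the PBS library, close to the values of Parp9, with which it shares a genomic stretch. It rose by 1.24 ± 0.22 in WT pristane over PBS (adjusted p = 0.0491 by limma), and differed by -2.03 ± 0.18 between the pristane groups (adjusted p = 0.0562 by limma). Dtx1, of the same Deltex family, fell by 1.85 ± 0.18 in WT pristane against PBS (adjusted p = 0.0274 by limma). Of 13 genes of ubiquitin and ISG15 conjugation, 0 were called between the pristane groups and 4 rose in WT pristane over PBS. Ube2l6, the conjugating enzyme for ISG15, had 9.89 and 9.13 FPKM in libraries labelled Irf8KO, against 60.4 and 82.5 FPKM in WT pristane and 11.1 FPKM in the PBS library. Of 16 sensing genes that TRIM ligases are known to act on or near, 0 were called between the pristane groups, 14 had differences below 0, and 4 rose in WT pristane over PBS. Irf7, the interferon regulatory factor, had 11.4 and 15.7 FPKM in libraries labelled Irf8KO, against 393 and 482 FPKM in WT pristane and 6.55 FPKM in the PBS library.

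Of 27 other type I interferon response genes, 27 were below 0 between the pristane groups with a median of -3.20 and 2 were called lower, and 20 rose in WT pristane over PBS with a median of 2.96. This list was compiled with earlier results of these data known. Of 11 repair partners of Parp1, 0 were called in each of the 3 comparisons (limma), with medians of -0.09 between the pristane groups, -0.11 for WT pristane and -0.24 for the libraries labelled Irf8KO against PBS. Of 5 genes that remove ADP-ribose, Adprh rose by 1.11 ± 0.20 in WT pristane over PBS (adjusted p = 0.0480 by limma) and Oard1 fell by 1.41 ± 0.20 (adjusted p = 0.0354 by limma). Of the 10 genes of NAD supply and breakdown, Bst1, an NAD-consuming surface enzyme, rose by 1.41 ± 0.23 in WT pristane over PBS (adjusted p = 0.0445 by limma) and by 1.41 ± 0.23 in libraries labelled Irf8KO over PBS (adjusted p = 0.0477 by limma). Nampt, the rate-limiting enzyme of NAD salvage, had 18.6 and 14.5 FPKM in libraries labelled Irf8KO, against 39.4 and 68.5 FPKM in WT pristane and 10.8 FPKM in the PBS library, and was not called in any comparison. Mvp, the major vault protein, rose by 1.69 ± 0.22 in WT pristane over PBS (adjusted p = 0.0326 by limma), whereas Parp4, its vault partner, had 5.61 and 5.14 FPKM in WT pristane libraries, against 11.2 FPKM in the PBS library.

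Homologues whose names do not start with Trim or Parp were looked at beside the families. Zc3hav1, the zinc finger antiviral protein and a PARP without catalytic activity, had 23.7 and 21.2 FPKM in libraries labelled Irf8KO, against 52.4 and 47.1 FPKM in WT pristane and 38.6 FPKM in the PBS library (-1.11 ± 0.16 between the pristane groups, adjusted p = 0.0970 by limma). Its level was above that of every TRIM or PARP gene counted here in each library. Pml, a TRIM family member that builds nuclear bodies, had 7.54 and 10.6 FPKM in libraries labelled Irf8KO, 12.7 and 12.4 FPKM in WT pristane libraries and 26.3 FPKM in the PBS library. Tiparp, a PARP induced by dioxin receptor ligands, had 19.7 and 17.5 FPKM, 16.7 and 24.3 FPKM, and 21.5 FPKM in the same order, so its groups overlapped.

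A RefSeq promoter window of 300 bases (250 before to 50 after the start, GRCm38.p6) was matched by symbol for 33 of the 46 genes, among them 12 of the 16 on the interferon-inducible list. Parp9, Parp10 and Parp14, also on that list, had no matched window, so the motif was not looked for in them. The pair of GAAA half-sites spaced by 2 bases, on either strand, occurred in 9 of the 33 (27.3%), against 1079 of 27025 symbols in the whole promoter table (3.99%). Of the 12 on the interferon-inducible list, 8 held it (66.7%), namely Parp11, Trim12a, Trim12c, Trim21, Trim26, Trim30a, Trim30d and Trim34a. Of the other 21, Parp4 alone did (4.76%). Trim30a, Trim30d, Trim12a, Trim12c and Trim34a lie in the same chromosome 7 cluster. The promoters of Trim30a and Trim30d were 92.3% identical and those of Trim12a and Trim12c 82.7%, so these shares do not count independent promoters. Trim12a, Trim21 and Trim34a held the motif after the start, at 11 to 20, 14 to 29 and 11 to 20 bases, while Trim12c held it at -29 to -20 bases. Trim30a held it at -36 to -27 bases from its upstream start and at 3 to 12 bases from its other listed start. Matches of neighbouring half-sites in Trim21, Trim26 and Parp4 overlap each other. With GGAA and GAAA half-sites in place of the GAAA pair, 5 of the 33 held a match (15.2%), against 853 symbols (3.16%). Within the cluster, Trim30a rose and Trim34a fell after pristane in WT mice, and both held the motif, while Trim30b, with a promoter window matched, held none. Trim25 and Parp12 held no GAAA pair in this window, though Trim25 held the second form across its start. A match describes letters and is not a bound site.

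**Figure D5:**
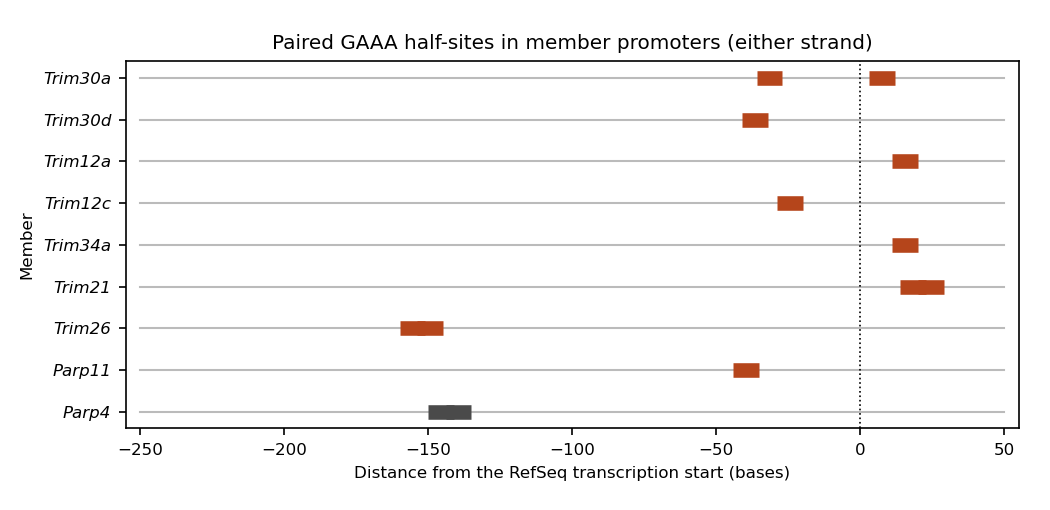
Position of each match to the paired GAAA half-sites on either strand (thick bar) along the promoter window (thin line), in bases from the RefSeq transcription start (dotted line), for the 9 genes that held it, with genes of the interferon-inducible list in orange and Parp4 in grey. The Trim30a row combines its 2 listed starts, and matches lie between -160 and 29 bases.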

How the data were processed

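RNA of 5 peritoneal cell libraries was measured by Smart-seq2. The authors deposited FPKM values in 1 table; per the submitters' processing notes, Cuffnorm, Cufflinks 2.2.1, TopHat2 2.0.10 and BWA took part, with no roles stated. Genome build, annotation, strand setting and scaling between libraries: not given in the sources used here. Although named as counts, the table holds values that are not whole, so limma was used in place of a count test.

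The 11117 genes that reached 1 FPKM in any library were tested with limma 3.58.1 (trend) in R 4.3.3 on log2(FPKM + 1), pseudocount 1, with 3 group means. Residual degrees of freedom were 2 and prior degrees 1.99. P-values were 2-sided and Benjamini-Hochberg adjusted over all genes, threshold 0.05. A fold on this scale understates the change of low genes. The procedure was tested on simulated data. Of the genes tested, 86 were at 0 in all 4 pristane libraries.

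Depth was estimated from the steps between low FPKM values of genes with 1 transcript; 61.6% to 81.0% of products fell within 0.15 of 1 or 2 fragments, so fragment numbers are rough. An exact 0 can be a failed estimate. Of the symbols, 27 had become dates and could not be matched.

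All members that passed 0.05, the 12 of smallest p per comparison and the 12 of highest level are given with values. Members and lists were chosen with earlier results of these data known. Alternatives were pseudocount 0.1, no filter on low values, a mean of at least 5 FPKM, quantile normalization, the pristane libraries alone, a replicate block and leaving out each pristane library. Identity between proteins, part of the design, was not computed; shared 50-base stretches of GENCODE M21 coding transcripts were counted instead, a choice made after seeing the data. Promoters came from RefSeq (GRCm38.p6), scanned with Python 3.11.15.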

Additional observations from a re-analysis of the deposited data

How the results depend on the processing

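The count of genes called in libraries labelled Irf8KO against WT pristane was 0, became 6 at a mean of at least 5 FPKM and 7 in the 4 pristane libraries alone with the level asked of these, a setting that tests fewer genes and was chosen after seeing the data; the medians were -0.80 at a mean of at least 5 FPKM and -0.47 with a pseudocount of 0.1. Against PBS, the count for libraries labelled Irf8KO was 1 with a pseudocount of 0.1 and the median -0.86. The WT pristane minus PBS median was 0.20 at a mean of at least 5 FPKM and -0.034 after quantile normalization; the cause was not tested. With 1 pristane library left out, a step that leaves 1 residual degree of freedom, the counts were 0 in every case for both comparisons with PBS, as over all genes tested, the medians ran from -0.41 to -0.30 between the pristane groups and from -0.35 to -0.097 for WT pristane against PBS, and Parp11 ran from -0.62 to 0.079. The motif was found in 9 promoters, against 5 with the other half-sites. Replicate numbers 1 and 2 are shared by the pristane groups, but the deviations of same-numbered libraries correlated at 0.0448 over 11117 genes, with only 2 pairs, so the numbers are not shown to pair. A fit with the replicate block called 0 genes with a median of -0.32. Single genes were followed across settings only for those of smallest p in each comparison, with Parp11 and Trim12c added between the pristane groups. Their direction held in all settings apart from Parp11, which the choice by p partly fixes, and the other members were not followed. Of these values, 176 for the pristane groups stayed on their side of the threshold and 13 crossed to called. Against PBS, 27 and 21 values lost their call and 2 and 3 gained one, for WT pristane and libraries labelled Irf8KO respectively. Without a filter Trim34a (WT pristane) and Trim12a (libraries labelled Irf8KO) lost their call and Trim33 (libraries labelled Irf8KO) gained one. With a pseudocount of 0.1 Trim24 and Trim34a (WT pristane) and Parp1, Trim26 and Trim12a (libraries labelled Irf8KO) lost their call. Depth limits genes that rest on a few fragments, which depends on transcript length as well as FPKM. Trim13 at 1.57 FPKM in the PBS library held about 6 fragments. Trim33 at 0.373 and 0.361 FPKM in libraries labelled Irf8KO held about 17 and 11.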
